A study of Mus musculus with 22 samples.

Results

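The 3 POU class 3 loci Pou3f1, Pou3f2 and Pou3f3 were examined for H3K4me3 and H3K27me3 in 5 cell types of the developing mouse neocortex. Members were selected on position alone, as all deposited peaks that overlapped 1 of 3 windows of build mm9, and the windows were chosen on where peaks had been listed, with earlier results of these data known: chromosome 4 from 124320000 to 124350000 for Pou3f1, chromosome 4 from 22390000 to 22430000 for Pou3f2, and chromosome 1 from 42720000 to 42790000 for Pou3f3. They numbered 59 of 110069 peaks in the 10 lists, with 20 at Pou3f1, 14 at Pou3f2 and 25 at Pou3f3. Of the 59, 45 were H3K4me3 and 14 were H3K27me3 peaks. The lists hold positions without symbols, so peaks belong to a gene here by the window alone. RefSeq places Pou3f3 on chromosome 1 and the other 2 genes on chromosome 4, as the windows do. Because the windows were set where these peaks lie, presence, absence and length at the loci are descriptions without a test.

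All samples came from mice of the strain C57BL/6JOlaHsd. Neuroepithelial cells (NEC), the earliest progenitors, were taken at E9.5 (embryonic day 9.5). At E14.5 the authors took apical radial glia labelled proliferative (aRG-P) or neurogenic (aRG-N), radial glia of the basal kind (bRG), and also neurons (N). The series describes the cells as purified, and the labels do not give the markers used for purification. NEC therefore differ from the other cell types in age as well as in kind, and these cannot be told apart. For each cell type and mark 2 samples were combined into 1 list by the authors, and for aRG-N H3K27me3 the labels call both samples technical replicates. Spread between replicates can therefore be given for no value, and read depth is unknown. Where peaks of both marks overlap, the marks may sit in separate cells of the population, and fewer marked cells cannot be told apart from less mark per cell.

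The POU class 3 factors bind DNA through a POU-specific domain and a POU homeodomain, and are encoded by genes without introns. Pou3f2 (Brn2) and Pou3f3 (Brn1) act together in mouse cortical progenitors and migrating neurons, where they are needed for the production and placement of upper-layer neurons. Pou3f1 (Oct6, SCIP) is known from early embryonic cells, from Schwann cells that begin to myelinate and from subsets of cortical projection neurons. H3K4me3 is deposited at active and poised promoters, mostly over CpG-rich DNA. H3K27me3 is laid down by a Polycomb repressive complex, often over long stretches at genes of developmental transcription factors, and promoters with both marks in 1 population are commonly called bivalent.

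Both marks concern CpG-rich promoters, so the promoter sequences are shown with every CpG in capitals. The RefSeq promoter table, of build GRCm38.p6, matched 2 of the 3 genes, Pou3f2 and Pou3f3. Each sequence has 300 bases, most of them before the start of the gene, 5′ to 3′. Its coordinates belong to GRCm38.p6 and cannot be set beside the mm9 positions of the peaks.
Pou3f2, chr4:22488317-22488616, minus strand: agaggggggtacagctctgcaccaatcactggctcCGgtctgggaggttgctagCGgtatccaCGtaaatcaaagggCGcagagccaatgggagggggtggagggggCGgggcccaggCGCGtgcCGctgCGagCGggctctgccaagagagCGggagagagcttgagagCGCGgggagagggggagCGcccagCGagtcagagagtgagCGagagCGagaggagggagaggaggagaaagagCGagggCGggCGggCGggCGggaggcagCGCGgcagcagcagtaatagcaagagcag
Pou3f3, chr1:42695518-42695817, plus strand: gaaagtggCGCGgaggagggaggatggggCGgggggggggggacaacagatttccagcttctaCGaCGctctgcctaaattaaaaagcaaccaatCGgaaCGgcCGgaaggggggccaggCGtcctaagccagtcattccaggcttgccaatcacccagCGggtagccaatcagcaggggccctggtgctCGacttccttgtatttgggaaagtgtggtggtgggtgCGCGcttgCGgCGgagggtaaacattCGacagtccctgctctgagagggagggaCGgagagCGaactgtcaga
The Pou3f2 promoter held 24 CpGs and the Pou3f3 promoter 18, against a median of 7 over 32841 promoters of the table. These counts lay at percentiles 80.0 and 70.3 of all promoters. The ratio of observed to expected CpG was 0.824 for Pou3f2 and 0.699 for Pou3f3, with a median of 0.384 over all promoters. The octamer recognised by POU factors, ATGCAAAT on either strand, was in neither window and in 1.74% of all promoters. CCAAT, searched on both strands, occurred 2 times at Pou3f2 and 3 times at Pou3f3. At least 2 were held by 11.7% of all promoters and at least 3 by 3.37%. This motif was chosen after the sequences had been seen, and a match in such a window is a run of letters, not a binding site.

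H3K4me3 was present at all 3 loci in all 5 cell types. Of 17229 H3K4me3 regions made by joining touching peaks of the 5 lists, 67.9% had a peak in every list, so presence alone did not set the loci apart. The order of the loci by H3K4me3 length was the same in every cell type, with Pou3f3 first, Pou3f2 second and Pou3f1 last. At Pou3f3, listed peaks covered 6904 bp in NEC, 6756 bp in aRG-P, 10601 bp in aRG-N, 8645 bp in bRG and 5326 bp in N. The 2 shortest values were those of N and aRG-P and the longest that of aRG-N. At Pou3f2 they covered 4566 bp in NEC, 2888 bp in aRG-P, 7355 bp in aRG-N, 5624 bp in bRG and 3059 bp in N. Here too aRG-N was highest and bRG next. At Pou3f1 they covered 3556 bp in NEC, 2507 bp in aRG-P, 3365 bp in aRG-N, 3174 bp in bRG and 1925 bp in N. The aRG-N value was then below that of NEC.

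Lists differed in how much H3K4me3 they held in all, with 11.8 Mb for aRG-P at the low end and 20.3 Mb for NEC at the high end. Per Mb of its list, the Pou3f3 H3K4me3 length was 340 bp in NEC, 571 bp in aRG-P, 680 bp in aRG-N, 649 bp in bRG and 398 bp in N. At Pou3f2 it was 225 bp in NEC, 244 bp in aRG-P, 472 bp in aRG-N, 422 bp in bRG and 228 bp in N. NEC, whose raw length at Pou3f2 was the third longest, thus had a share there close to that of N, and the lowest share at Pou3f3. At Pou3f1 the share ran from 144 bp per Mb in N and 175 bp in NEC to 238 bp in bRG. The radial glia lists aRG-N and bRG held the 2 highest shares at each of the 3 loci.

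**Figure D1:**
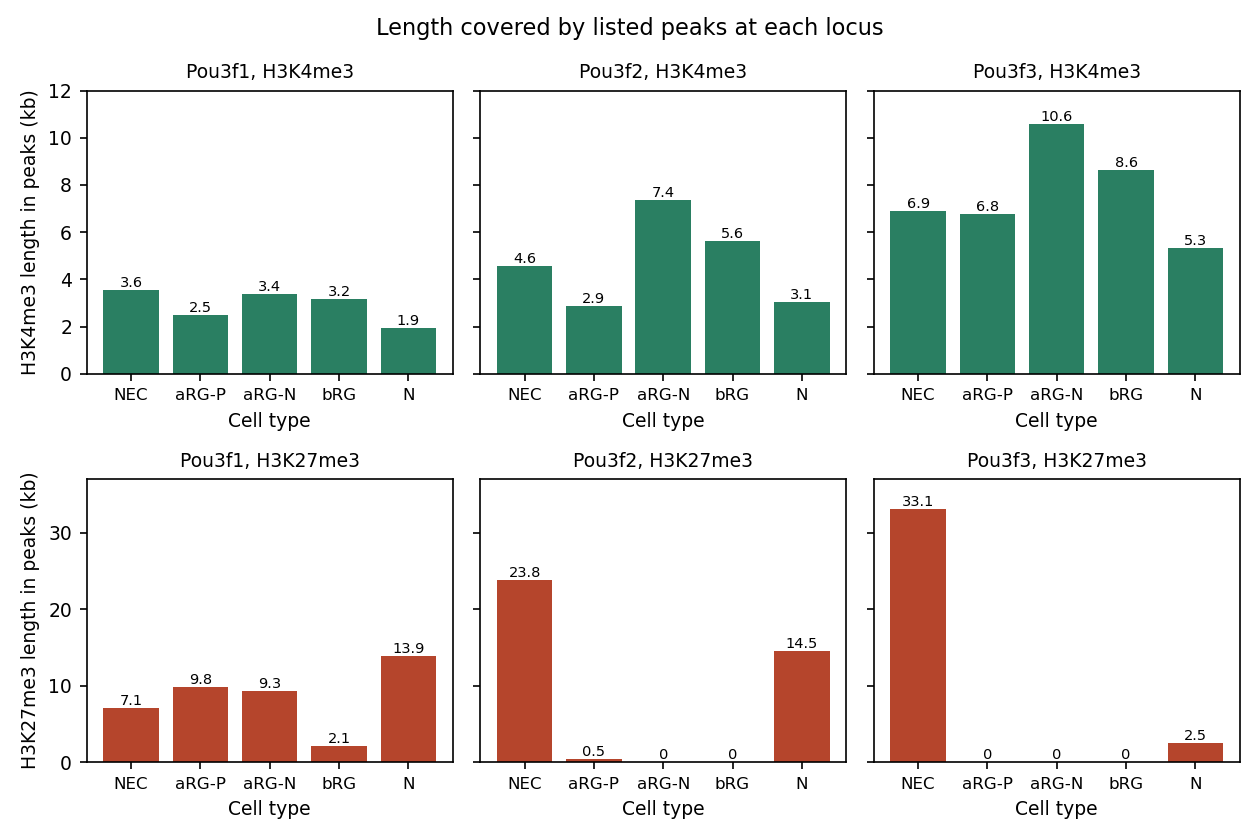
Length covered by H3K4me3 peaks (top) and H3K27me3 peaks (bottom) in kb at the 3 loci, with the 5 cell types in lineage order on the horizontal axis and 1 pooled list per bar. H3K4me3 is present in every panel, while H3K27me3 measures 33.1 kb at Pou3f3 in NEC and 0 in the 3 radial glia types there.

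The H3K4me3 stretches were broad for their lists. When peaks separated by at most 3 kb were joined, the Pou3f3 stretch measured 7.11 kb in NEC, 8.65 kb in aRG-P, 11.2 kb in aRG-N, 10.1 kb in bRG and 6.18 kb in N. Only 62 of 13399 joined stretches in NEC were longer, 11 of 11554 in aRG-P, 9 of 12104 in aRG-N, 7 of 11517 in bRG and 38 of 11618 in N. The Pou3f2 stretch of 7.66 kb in aRG-N was exceeded by 34 stretches and that of 6.39 kb in bRG also by 34. In N it measured 3.42 kb, with 357 longer. The Pou3f1 stretch ranged from 3026 bp in N (percentile 95.5 of the list) to 3803 bp in NEC (percentile 95.8), and its highest percentile was 97.4, in aRG-P. The median joined stretch measured between 953 bp in aRG-P and 1416 bp in NEC.

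Each locus had its H3K4me3 split into blocks at positions shared by the cell types. At Pou3f2 every list held 2 peaks, and 182 bp between them, from 22415556 to 22415737, were covered by none. At Pou3f1 the bases from 124334721 to 124334905, 185 bp, were covered in no list, and at Pou3f3 the 110 bp from 42752409 to 42752518. The lists hold only part of the H3K4me3 calls. Between the nearest listed peaks outside the window, 17 calls were not listed in aRG-P at Pou3f3 and 9 in aRG-N at Pou3f2. Whether any lay in these gaps was not examined. The bases covered in all 5 lists summed to 1388 bp of the 3803 bp between the first and last H3K4me3 base at Pou3f1. They summed to 2296 of 7788 bp at Pou3f2 and to 4713 of 11198 bp at Pou3f3. The longest stretch covered in every list was 2507 bp, from 42754230 to 42756736, at Pou3f3. A break after base 42753871 recurred there in aRG-P, aRG-N and N, whose peaks ended at that base, and in bRG, whose peak ended at 42753875, while the NEC peak ran across it from 42752574 to 42756736. The outer edges differed as well, the Pou3f3 stretch reaching 42759529 in aRG-N and 42758904 in bRG, against 42756736 in NEC.

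**Figure D2:**
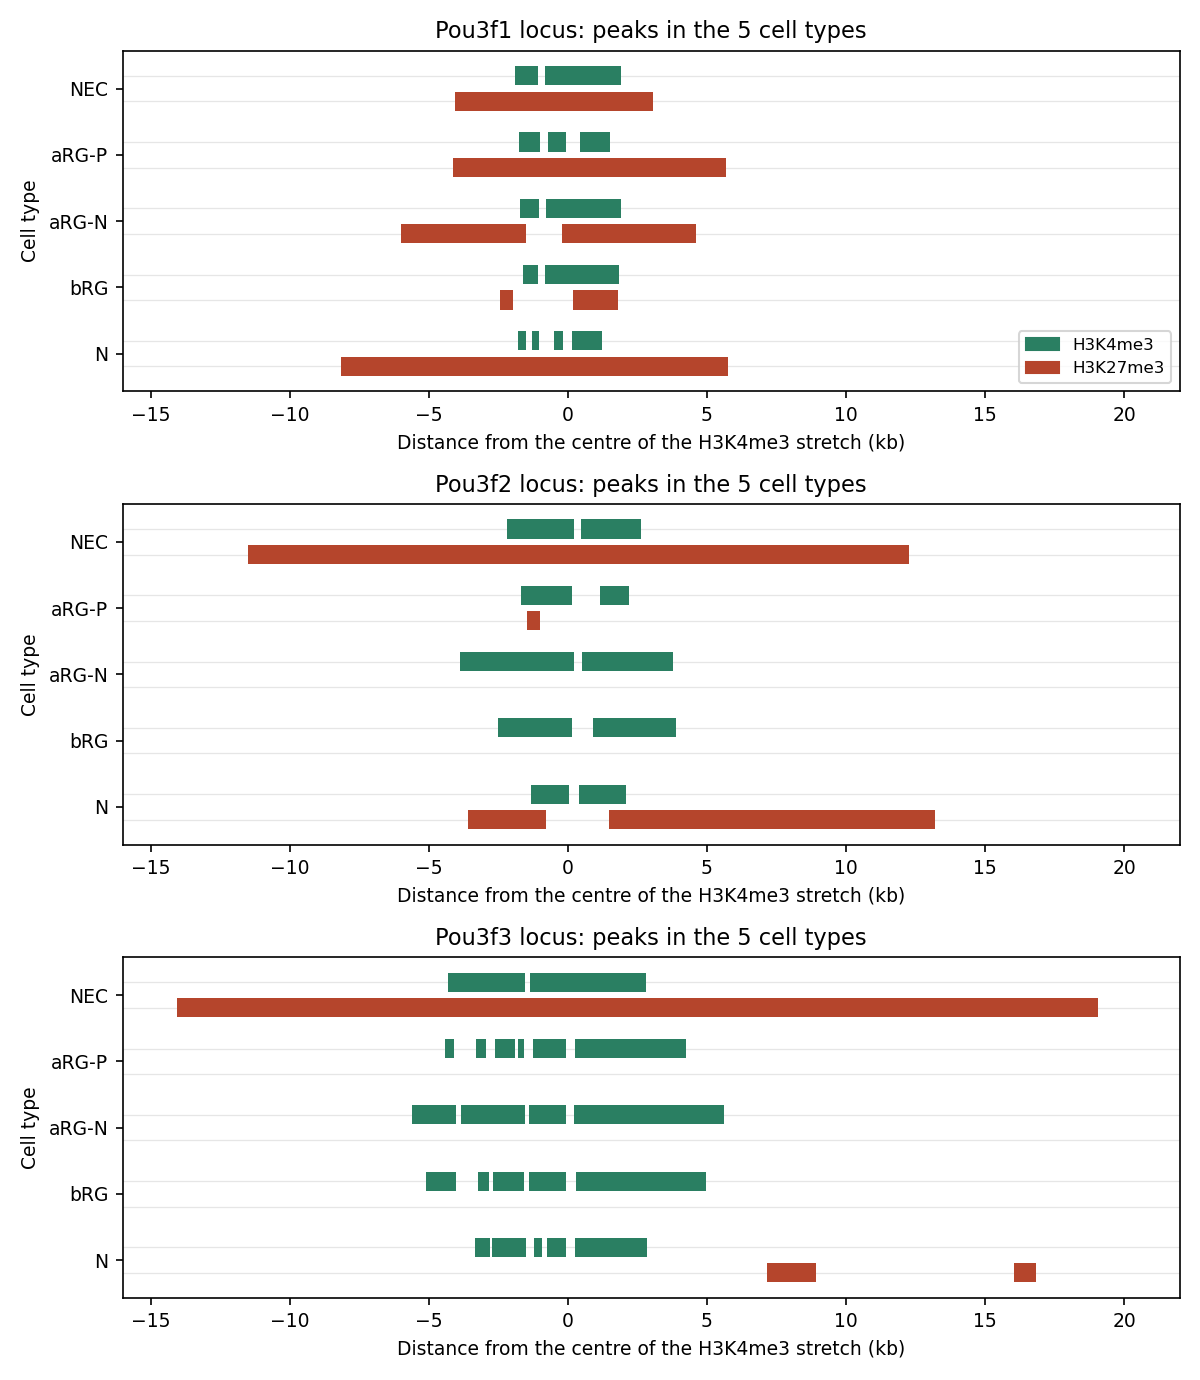
Listed peaks of H3K4me3 (green) and H3K27me3 (red) at the 3 loci, drawn to scale as distance in kb from the centre of the H3K4me3 stretch of the 5 lists, with 1 pair of rows per cell type. H3K27me3 spans the H3K4me3 peaks of all 3 loci in NEC, and in aRG-N and bRG it is drawn at Pou3f1 alone.

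Fold enrichment, the value the authors' peak caller gave each H3K4me3 peak, was used to rank peaks within their own list. The strongest Pou3f2 peak was enriched 20.7-fold in NEC, 14.1-fold in aRG-P, 22.2-fold in aRG-N, 7.76-fold in bRG and 9.90-fold in N. In the order of the cell types these lay at percentiles 54.3, 87.7, 97.4, 41.5 and 68.8 of their lists. The aRG-N peak, from 22411447 to 22415547, thus stood near the top of its list, and the bRG peaks below the middle of theirs although they were long. The strongest Pou3f3 peak was enriched 25.6-fold in NEC, 11.6-fold in aRG-P, 15.9-fold in aRG-N, 12.1-fold in bRG and 10.5-fold in N. Its percentiles, at 66.1, 69.7, 73.0, 81.6 and 75.2, lay in the upper part of every list. The strongest Pou3f1 peak was enriched 18.2-fold in NEC, 6.85-fold in aRG-P, 14.0-fold in aRG-N, 10.3-fold in bRG and 6.34-fold in N. Its percentiles were 48.3, 28.7, 61.6, 65.1 and 26.9, each below that of Pou3f3 in the same list. The weakest of the 45 H3K4me3 members was a Pou3f1 peak in N from 124335252 to 124335556, with a fold enrichment of 4.42 and a −log10 q of 4.45.

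**Figure D3:**
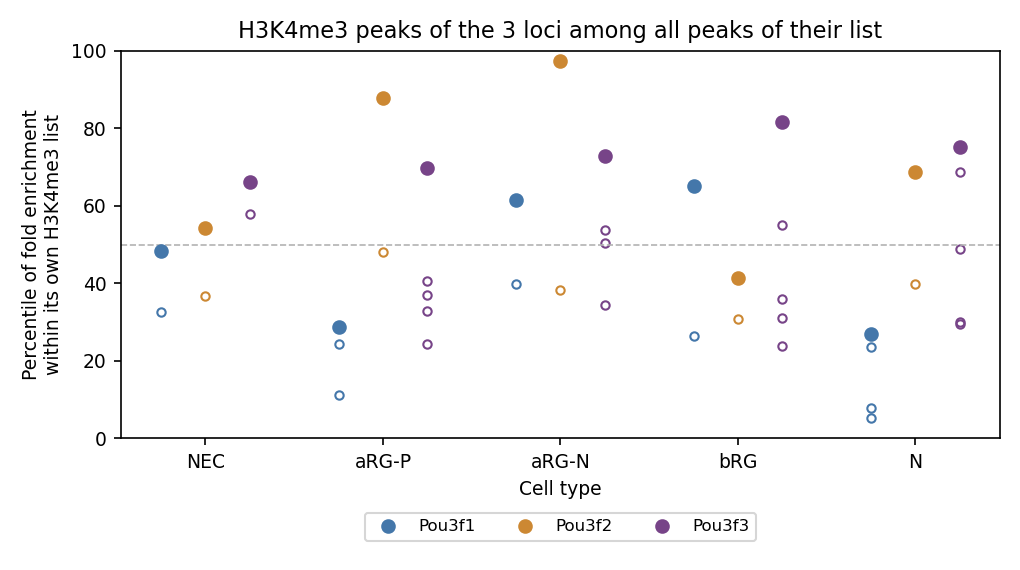
Percentile of the fold enrichment of each H3K4me3 peak within its own list (vertical axis) for the 3 loci in the 5 cell types. Filled points are the strongest peak of a locus, open points its other peaks, and the dashed line is the middle of the list; Pou3f2 in aRG-N lies at 97.4 and Pou3f1 in N at 26.9.

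At Pou3f3, the gene of Brn1, H3K27me3 formed 1 long domain in NEC and was absent from the lists of all 3 radial glia types. The NEC domain ran from 42739894 to 42772996 and measured 33103 bp. No H3K27me3 peak lay in the window in aRG-P, aRG-N or bRG. In N there were 2 short peaks, of 1749 bp from 42761097 to 42762845 and of 765 bp from 42769987 to 42770751. Both N peaks lay inside the span of the NEC domain and covered 7.59% of it, and they lay on 1 side of the H3K4me3 stretch, 4303 bp from the nearest H3K4me3 peak. In score, a value of the authors' peak caller whose scale is not settled, the NEC domain stood at percentile 90.5 of its list and the N peaks at percentiles 42.9 and 32.1 of theirs.

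Over the whole NEC list of 9460 H3K27me3 peaks, 66.7% met no H3K27me3 peak in aRG-P, 57.4% none in aRG-N, 73.1% none in bRG and 54.8% none in any of these 3. The exact Clopper-Pearson 95% interval of the last share was 53.7 to 55.8%, and such intervals cover counting error only. Absence by itself was thus the more common outcome in this list, whose median peak measured 1836 bp. Among the NEC domains of at least 20 kb, 13 of 121 (10.7%, interval 5.85 to 17.7%) met no peak in aRG-P, aRG-N and bRG. On the autosomes the count was 11 of 105 (10.5%). The length limit was chosen after the lengths at the loci were known. Ranked by length, the Pou3f3 domain was number 31 in the NEC list and number 2 among the 5180 NEC peaks absent from all 3 radial glia lists.

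At Pou3f2, the gene of Brn2, H3K27me3 was long in NEC, short or absent in radial glia and long in N. The NEC domain ran from 22403835 to 22427617 and measured 23783 bp. In aRG-P a single peak of 489 bp was listed, from 22413857 to 22414345, and none in aRG-N or bRG. In N, peaks of 2791 bp (22411766 to 22414556) and 11719 bp (22416838 to 22428556) summed to 14510 bp. The aRG-P peak had a score of 14.3, at percentile 7.05 of its list, and was 1 of the weaker peaks there. It was not retained when the lists were cut to equal numbers of peaks or to a common lowest score. The longer N peak had a score of 31.5, at percentile 78.0. The shorter N peak, at percentile 38.2, was also lost in the cut to equal numbers, but not with the common lowest score. Of the N length, 93.5% lay within the NEC domain, and it covered 57.1% of that domain. The gap between the N peaks lay over the middle of the H3K4me3 stretch. Of all NEC H3K27me3 peaks 61.9% had no overlapping peak in N, and of those of at least 20 kb 8.26%. The Pou3f2 domain was number 78 by length among the 9460 NEC peaks and number 8 among the 5350 of them absent from both aRG-N and bRG. Of the NEC domains of at least 20 kb, 16 of 121 (13.2%, interval 7.75 to 20.6%) were absent from both.

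At Pou3f1, H3K27me3 was listed in all 5 cell types. It covered 7115 bp in NEC, 9815 bp in aRG-P, 9295 bp in aRG-N, 2098 bp in bRG and 13904 bp in N. The N domain, from 124327574 to 124341477, was the longest and contained the whole NEC domain, from 124331669 to 124338783. The aRG-P domain, from 124331607 to 124341421, contained it as well. The N and aRG-P H3K27me3 lists were made differently from the others, and whether this changed the lengths was not tested. In aRG-N the mark was in 2 peaks, from 124329742 to 124334216 and from 124335539 to 124340358, and in bRG in 2 shorter ones, of 488 bp from 124333278 and of 1610 bp from 124335921. The break between the aRG-N peaks lay over the end of the first and the start of the second H3K4me3 peak of that list. For comparison, 16.4% of 13700 H3K27me3 regions joined over the lists had a peak in all 5. The score of the strongest peak stood at percentiles 87.0, 70.0, 78.8, 79.1 and 70.0 of the lists in lineage order.

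By H3K27me3 length Pou3f1 ordered the cell types differently from Pou3f2 and Pou3f3, which shared the order NEC, N, radial glia. At Pou3f1 N was above NEC, with 13.9 against 7.12 kb. It was below NEC at Pou3f2, with 14510 bp against 23783 bp, and at Pou3f3, with 2.51 against 33.1 kb. These lengths are not like for like. Peak names in the N H3K27me3 list mention extended reads, and those in the aRG-P H3K27me3 list an excluded set. Whether the order by length depends on this was not tested. In aRG-N the mark covered 9.30 kb at Pou3f1, with no peak at Pou3f2 and Pou3f3, although the aRG-N list was the second longest for H3K27me3, with 6830 peaks over 26.0 Mb. The N list held 5734 peaks over 22.4 Mb, and the bRG list, with 3476 peaks over 12.6 Mb, was the shortest. Relative to 1 Mb of its own list, H3K27me3 at Pou3f1 measured 242 bp in NEC, 576 bp in aRG-P, 357 bp in aRG-N, 167 bp in bRG and 621 bp in N.

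Overlap of the marks in the same cell type was found at Pou3f3 in NEC alone, at Pou3f2 in NEC, aRG-P and N, and at Pou3f1 in all 5. In NEC, H3K27me3 covered 100% of the H3K4me3 length at all 3 loci, against 17.9% over all NEC H3K4me3 peaks. At Pou3f1 it covered 100% of that length in aRG-P and in N, 68.5% in aRG-N and 50.7% in bRG. Over all H3K4me3 peaks the same share was 5.13% (aRG-P), 7.92% (aRG-N), 4.66% (bRG) and 8.20% (N). At Pou3f2 the share was 16.9% in aRG-P, 0 in aRG-N and bRG and 37.1% in N, where 535 bp and 600 bp at the outer sides of the H3K4me3 peaks were shared. When an overlap had to reach 50% of the shorter peak, that in N was lost and Pou3f2 had both marks in 2 cell types, NEC and aRG-P. Counted as peaks, 25.9% of NEC, 8.9% of aRG-P, 14.4% of aRG-N, 8.41% of bRG and 12.7% of N H3K4me3 peaks met H3K27me3 of the same cell type.

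**Figure D4:**
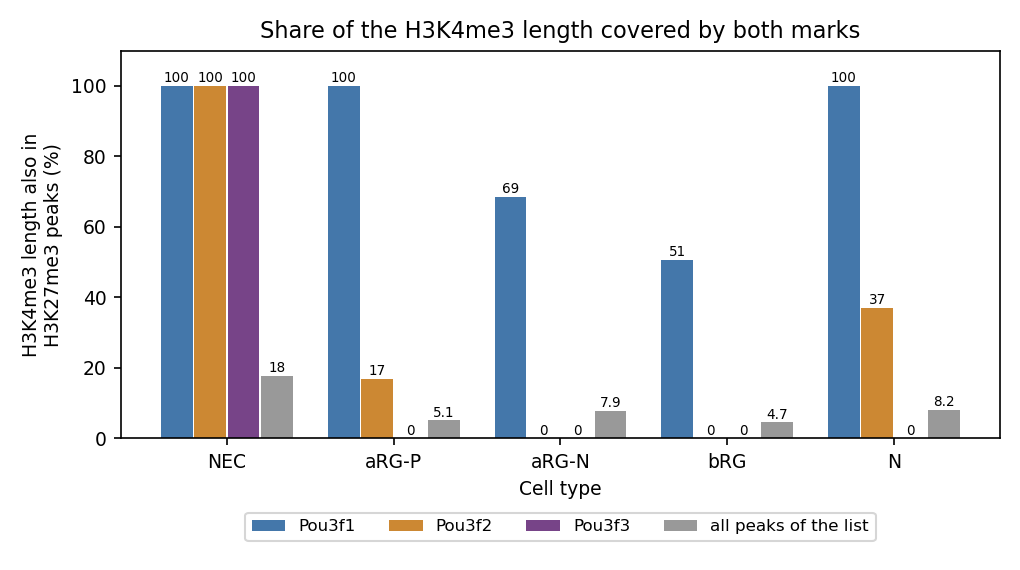
Percentage of the H3K4me3 length that also lies in H3K27me3 peaks of the same cell type, for the 3 loci and, in grey, for all H3K4me3 peaks of the list. All 3 loci are at 100% in NEC, and Pou3f1 is the locus with values above 0 in aRG-N and bRG (68.5% and 50.7%).

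Each locus contributed 2 of the 11690 H3K4me3 regions found in all 5 lists, and these were sorted by the cell types in which H3K27me3 overlapped them. Both Pou3f3 regions had H3K27me3 in NEC only, as did 7.76% of the 11690. Of the Pou3f2 regions, that from 22415738 to 22419234 had it in NEC and N (1.33% of all) and that from 22411447 to 22415555 in NEC, aRG-P and N (0.145%), the aRG-P overlap again being the 489 bp peak. Of the Pou3f1 regions, that from 124334906 to 124337636 had it in all 5 cell types (6.18%) and that from 124333834 to 124334720 in all but bRG (1.03%). The 2 regions of Pou3f1 and those of Pou3f2 therefore each differed by 1 cell type, bRG and aRG-P in turn.

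Regions elsewhere with the same presence and absence in all 10 lists were ranked by the Euclidean distance of log2(1 + bp in peaks) over the lists, which share cells, age and processing. When the peaks of all 10 lists were joined, 25409 regions resulted, and 137 had the pattern of Pou3f3. The nearest of these lay on chromosome 2 from 38190559 to 38216176, at a distance of 1.31. This region carried 25.6 kb of H3K27me3 in NEC and 1.57 kb in N, with 12.5 kb of H3K4me3 in aRG-N. Next came chromosome 14 from 13167273 to 13188020 (distance 2.53) and chromosome 7 from 38551793 to 38560530 (2.98).

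For Pou3f2, 17 regions shared the pattern, a number that rests on the 489 bp aRG-P peak, since without it the locus has the pattern of Pou3f3. The nearest, on chromosome 19 from 59524055 to 59546117, lay at a distance of 1.22 and carried 21.8 kb of H3K27me3 in NEC, 0.503 kb in aRG-P and 18.1 kb in N. The next ones, on chromosome 2 from 84677264 to 84681423 and chromosome 1 from 136602016 to 136607565, were farther off, at 6.00 and 6.10. For Pou3f1, whose pattern of both marks in every list was shared by 890 regions, the nearest was 79420131 to 79428330 of chromosome 8 (1.79), followed by 82198846 to 82206028 of chromosome 11 (1.82) and by 127098408 to 127108062 of chromosome 6 (2.29). No gene is assigned to these regions.

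The deposited lists hold only part of the calls, which bears on absences and on lengths. Peak numbers run in genome order in every list, and a jump between neighbouring numbers marks calls that are not listed. Around Pou3f3 the listed H3K27me3 peaks on either side of the window carried consecutive numbers in aRG-P (60 and 61) and in aRG-N (83 and 84), so no unlisted call lay between them. In bRG 1 number was missing between peaks ending at 40741402 and starting at 45981916. In NEC and N, which had listed H3K27me3 peaks there, 3 and 5 calls were not listed. Around Pou3f2, 8 calls in aRG-N and 6 in bRG were not listed between the neighbouring peaks, which were over 10 Mb apart. Whether any of these lay at Pou3f2 cannot be read from the lists. In the lists with H3K27me3 peaks at Pou3f2, 4 calls were not listed in NEC, 7 in aRG-P and 3 in N. Around Pou3f1 the number was 3 in aRG-P and 1 in each other H3K27me3 list. Lengths at the loci may thus leave out calls, and where the unlisted calls lay was not examined.

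No member crossed the edge of its window. The nearest listed peak outside was an H3K4me3 peak 19.95 kb beyond the Pou3f1 window in NEC, from 124369953 to 124370901, with a counterpart in each of the other lists. The nearest H3K27me3 peaks outside lay 23.3 kb in N and 23.4 kb in aRG-N beyond the same edge. At Pou3f2 and Pou3f3 no H3K27me3 peak of any list lay within 429 kb of the window, and the nearest H3K4me3 peak was at least 104.7 kb away. In the RefSeq table of GRCm38.p6, the genes next to Pou3f3 are Pantr1 on its lower side and 2900092D14Rik on its higher side. Both are long noncoding RNA genes, and a further gene, Gm46091, overlaps Pou3f3. The neighbours of Pou3f2 are Fbxl4 and the noncoding Gm30731, and those of Pou3f1 are the noncoding Gm2164 and Gm38545. Since no mm9 annotation was used, peaks at these noncoding genes or at Gm46091 could not be separated from those of the POU genes.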

How the data were processed

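H3K4me3 and H3K27me3 were profiled by ChIP-seq in 20 samples of 5 cell types, and 2 Input samples were not analysed here. Build mm9 and the tools MACS2, bedtools and Bowtie 1.0.0 come from the submitters' processing notes. Titles gave each sample its cell type and mark. Per the file headers, the 10 deposited lists hold peaks near transcripts, and per the peak names each was called on combined samples. Names in the N H3K27me3 list mention extended reads, and those in the aRG-P H3K27me3 list an excluded set. For H3K4me3 the deposited columns are a fold enrichment (ratio), −log10 p and −log10 q. The 3 deposited H3K27me3 columns are called a score, since the last exceeds the middle one in every peak and their scale is not settled. Peaks within 1 list were ranked by the first of these.

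Members, lists and settings were chosen with earlier results of these data known. The text names the 3 genes and, per locus, the 3 most similar regions. Overlap meant at least 1 bp. Length is the number of bases in listed peaks, and percentiles give the share of the list with a lower value. Intervals of shares are exact Clopper-Pearson 95% intervals. Other POU genes and cell type markers were not analysed here, for want of an mm9 annotation. Positions are 1-based. Overlap calls were tested on simulated lists. Python 3.11.15, numpy 2.4.6, scipy 1.17.1 and matplotlib 3.10.9 were used.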

Additional observations from a re-analysis of the deposited data

How the results depend on the processing

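Each count of cell types and each length was recomputed with H3K4me3 peaks kept from a −log10 q of 5 upwards, lists cut to 14801 H3K4me3 and 3476 H3K27me3 peaks, windows widened by 20 kb on each side, peaks clipped at the window, gaps of up to 3 kb joined, an overlap of 50% of the shorter peak, and a common lowest H3K27me3 score of 15.8. Of 183 values, 179 stayed within 1.5 times, a limit that a fall from 3 to 2 cell types did not exceed. Some values could not move. Clipping left all 30 of its values as they were, since no member crossed a window edge. Widening changed only the NEC H3K4me3 length at Pou3f1, from 3.556 to 4.505 kb. The 489 bp H3K27me3 peak at Pou3f2 in aRG-P was absent (0 kb) in the cut lists and with the common lowest score, which left 2 cell types with H3K27me3 and with both marks there, NEC and N. The common score of 15.8 is the lowest of the aRG-N list, whereas the aRG-P list goes down to 13.2. Whether scores can be compared between lists is unknown, since their scale is not settled. With an overlap of 50%, both marks at Pou3f2 were also in 2 cell types, in this case without N. Joining gaps gave 4.25 kb of H3K27me3 at Pou3f1 in bRG (2.10 kb as listed) and 3.03 kb of H3K4me3 at Pou3f1 in N (1925 bp as listed). Leaving out the aRG-P and N H3K27me3 lists, which were made differently, was added after seeing the data. Of the 3 cell types that remained, H3K27me3 was then in 3 at Pou3f1, 1 at Pou3f2 and 1 at Pou3f3. Both marks overlapped in 3, 1 and 1. This setting gave counts of cell types only, so the H3K27me3 lengths in aRG-P and N were not tested by it. No paired analysis was possible because each list pools its samples, and no replicate could be left out for the same reason. Depth is unknown, so a missing peak means that none was called and listed, not that the mark is absent.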
